A study of Mus musculus with 16 samples.

Results

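In macrophages lacking NELF-B, 100 genes were selected on the measured values as those most consistently lower than in wild type macrophages, of 9614 genes measured. They were chosen by the deposited log2 CPM values (read counts scaled to library size): knockout (KO) minus wild type (WT) within 3 mouse pairs under LPS and under LPS + Dex gave 6 differences per gene, and the largest of these was the gene's score. Genes needed a mean of at least 1 log2 CPM over the 6 WT libraries of those treatments, Nelfb itself and symbols starting with Zfp or Slc were left out, and the 100 lowest scores among the 9243 remaining genes were kept. By role, 63 of the 100 were assigned to classes of DNA replication, DNA repair, chromosome segregation or cell cycle control. The remaining 37 were not placed in these classes and are called other members, and a part of theirs in cell division was not examined. NELF is the negative elongation factor, a complex that holds RNA polymerase II shortly after it starts transcribing, and NELF-B is one of its subunits. Genes of the cell division cycle are typically transcribed together in dividing cells, in waves that serve S phase and then mitosis, and bone marrow precursors divide while they become macrophages in culture.

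The macrophages were grown from the bone marrow of male C57BL/6 mice of 8 weeks with the genotype LysM-Cre:NELF-B wt/wt (WT) or LysM-Cre:NELF-B fl/fl (KO), so that Cre, which is expressed from a promoter active in myeloid cells, was present in both genotypes. Cells were left untreated (2 mice per genotype), or were given LPS, a bacterial lipopolysaccharide that activates macrophages, at 10 ng/ml (3 mice per genotype), or LPS with the synthetic glucocorticoid dexamethasone (Dex) at 100 nM (3 mice per genotype), for 1 h. Polyadenylated RNA was sequenced in 16 libraries. Each mouse gave cells for every treatment it was used in, and pairs A, B and C, each of 1 WT and 1 KO mouse, follow shared marks in the library names for B and C, while pair A holds the remaining mice; untreated cells came from pairs A and B.

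Nelfb was lower in the 8 KO libraries, at 3.27 to 4.38 log2 CPM, than in the 8 WT libraries, at 5.59 to 6.21, and the groups did not overlap. Of the KO mice, the one of pair B kept the most Nelfb RNA, 4.38, 4.21 and 4.22 log2 CPM in untreated, LPS and LPS + Dex cells, against 3.27 to 3.53 in the mice of pairs A and C. Depth, recovered from the steps of the low values, was 25029253 to 49728709 reads per library. The untreated WT library of pair A stood apart: its correlation with the other 15 libraries was 0.83 to 0.909 across genes, against 0.924 to 0.993 among those 15. Macrophage markers (7 of 8 listed were measured) summed to 6270 to 8540 CPM in WT and 6500 to 9120 in KO libraries. Cd4, itself a member of the 100, was the only T cell marker of 5 in the table. The 1 measured B cell marker summed to 13.4 to 36.6 CPM in WT and 14.0 to 39.7 in KO libraries, the 1 neutrophil marker to 5.46 to 27.1 and 11.8 to 41.5, the 1 dendritic marker to 0.556 to 5.67 and 0.46 to 10.1, and the 4 stromal markers to 56.4 to 130.0 and 83.8 to 153.0; their part in the differences was not tested. S100a8, the neutrophil marker, was at 3.73, 2.45 and 4.36 log2 CPM in LPS-treated WT and 4.34, 3.80 and 5.18 in KO mice of pairs A, B and C, and at 3.83, 2.97 and 4.60 against 4.48, 4.37 and 5.38 under LPS + Dex. It was thus higher in the KO in all 6 treated pairs, whereas untreated cells had 4.76 against 4.19 in pair A and 2.48 against 3.56 in pair B. Lyz2, the macrophage gene whose locus carries LysM-Cre, was at 4.45, 4.97 and 5.30 log2 CPM in LPS-treated WT and 5.92, 5.95 and 6.33 in KO mice. With LPS + Dex Lyz2 was at 4.30, 4.75 and 5.08 against 5.77, 6.02 and 6.24, and in untreated cells of pairs A and B at 4.63 and 4.31 against 5.42 and 5.38. It was higher in the KO in all 8 pairs of libraries, and its part in the differences of the members was not tested.

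The promoters of the members are shown first, since the rule used no sequence. RefSeq promoter windows of 300 bases (250 before to 50 after a start, build GRCm38.p6, on the gene's strand) were matched for 77 of the 100 members, giving 96 windows, 53 of them for 47 cell cycle members and 43 for 30 others. Each window was searched on both strands; no motif searched contains another, although matches can overlap. Capitals mark the matches in 5 windows of cell cycle members among the 20 lowest scores. For contrast, the window of Padi4, a peptidylarginine deiminase that modifies histones, is also given, and it holds TATAAA. The Cdc45 window holds a TATAAA match as well, on the opposite strand.
Ube2c, chr2:164769679-164769978 (plus strand): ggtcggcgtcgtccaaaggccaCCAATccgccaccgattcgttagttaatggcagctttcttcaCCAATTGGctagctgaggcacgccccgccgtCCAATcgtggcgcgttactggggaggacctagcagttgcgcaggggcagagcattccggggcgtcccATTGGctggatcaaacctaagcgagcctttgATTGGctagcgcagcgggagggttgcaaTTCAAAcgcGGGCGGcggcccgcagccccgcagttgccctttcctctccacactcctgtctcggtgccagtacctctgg
Kif18b, chr11:102925075-102925374 (minus strand): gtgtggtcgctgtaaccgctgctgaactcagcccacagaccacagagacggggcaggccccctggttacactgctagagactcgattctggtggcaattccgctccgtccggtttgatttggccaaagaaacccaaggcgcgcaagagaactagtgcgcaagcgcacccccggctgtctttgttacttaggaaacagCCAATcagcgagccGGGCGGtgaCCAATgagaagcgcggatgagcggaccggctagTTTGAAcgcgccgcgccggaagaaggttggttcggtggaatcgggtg
Spag5, chr11:78301341-78301640 (plus strand): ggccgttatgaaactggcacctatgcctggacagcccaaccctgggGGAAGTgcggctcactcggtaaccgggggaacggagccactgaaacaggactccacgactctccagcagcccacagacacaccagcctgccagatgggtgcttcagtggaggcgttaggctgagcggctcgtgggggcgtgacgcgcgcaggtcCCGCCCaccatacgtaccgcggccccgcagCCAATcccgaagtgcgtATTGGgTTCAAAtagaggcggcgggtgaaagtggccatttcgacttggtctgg
Kntc1, chr5:123749476-123749775 (plus strand): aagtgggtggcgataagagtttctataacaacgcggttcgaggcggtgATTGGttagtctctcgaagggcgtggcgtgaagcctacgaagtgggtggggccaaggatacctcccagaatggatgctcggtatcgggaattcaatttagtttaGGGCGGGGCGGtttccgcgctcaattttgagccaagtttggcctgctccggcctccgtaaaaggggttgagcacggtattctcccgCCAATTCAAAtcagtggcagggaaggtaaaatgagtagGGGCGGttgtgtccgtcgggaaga
Cdc45, chr16:18811923-18812222 (minus strand): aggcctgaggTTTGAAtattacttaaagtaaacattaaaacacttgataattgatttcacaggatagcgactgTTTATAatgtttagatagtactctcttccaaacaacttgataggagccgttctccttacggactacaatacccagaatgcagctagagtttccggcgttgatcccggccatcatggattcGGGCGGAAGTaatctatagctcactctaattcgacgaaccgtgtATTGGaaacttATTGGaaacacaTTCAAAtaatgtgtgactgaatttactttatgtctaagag
Padi4, chr4:140774154-140774453 (minus strand): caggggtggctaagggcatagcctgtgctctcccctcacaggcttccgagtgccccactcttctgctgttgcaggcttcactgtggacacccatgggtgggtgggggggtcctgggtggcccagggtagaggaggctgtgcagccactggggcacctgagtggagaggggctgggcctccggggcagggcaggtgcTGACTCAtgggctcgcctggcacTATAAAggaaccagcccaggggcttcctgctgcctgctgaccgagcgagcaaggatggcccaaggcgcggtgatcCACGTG

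CCAAT, the box bound by NF-Y, was in 69.8% of the windows of cell cycle members, against 37.2% of those of the other members, 37.3% of 9950 windows of all genes in the table and 37.4% of all 32851 promoters. TTTGAA, known as the cell cycle homology element of genes that peak in late cell cycle, was in 45.3% of the cell cycle windows, 11.6% of the others, 11.9% of windows of the table and 17.9% of all promoters. TTCCCGC, which resembles the E2F site of genes active around S phase, was in 28.3%, 6.98%, 8.35% and 4.6% of these windows in the same order, and TTGGCGC, another E2F-like motif, in 9.43%, 0.0%, 4.39% and 2.45%. GGGCGG (66.0% against 64.1% in the table) and GGAAGT (30.2% against 30.3%) stood close to the table, while TATAAA was in 5.66% of cell cycle windows and 6.89% of the table's. TGACTCA, the AP-1 motif, was in 0.0% and 3.7%, CACGTG in 3.77% and 10.7%, GCATGCG in 13.2% and 6.83%, and AAGATGG in 5.66% and 7.64%. The windows of Ube2c, Kif18b, Spag5, Kntc1 and Cdc45 each hold at least 1 CCAAT and 1 TTTGAA match, at varying distances from the start, whereas Padi4 holds neither. These are descriptions of letters, without a test, and TTTGAA and both E2F-like motifs were added once the members were known.

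The members were protein-coding and spread over 20 chromosomes, with 14 on chromosome 2 (14.0% of members, against 8.05% of genes in the table), which also carries Nelfb. Only Mastl lay within 20 measured genes of Nelfb, at 15 genes away on chr2:23116539-23156024, and the next member on that chromosome, Sh2d3c, was 119 genes away. Median gene span was 28.9 kb for the members and 23.9 kb for all genes, and the median number of exons in the longest transcript was 11.0 and 8.0.

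The differences that chose the members are given as a description, without a test. Under LPS the median KO minus WT difference over the 100 members was -1.07, -0.55 and -1.43 on the log2 scale in pairs A, B and C, and under LPS + Dex it was -1.02, -0.63 and -1.41. The median over all genes was between -0.01 and 0.01 in each of the 6 comparisons. The mean of a member's 6 differences ran from -1.50 (Serpinb9b, a serpin of the granzyme inhibitor family) to -0.46, that is, levels in the KO from 35.4% of WT upwards. The score itself ran from -1.15 (Mamdc2) to -0.40 (Oip5), and at the boundary Ticrr (-0.40), Lima1 (-0.40) and Oip5 (-0.40) were the last inside, with Ccnb2 (-0.39), Cdca2 (-0.39) and Kif11 (-0.39) the first outside. All 100 members were lower in all 6 pairs by construction, as were 15.0% of all genes. With mice taken as unpaired groups, all KO libraries lay below all WT libraries in 82 members under LPS (7.82% of all genes) and in 77 under LPS + Dex (8.83%), and nothing is read from these shares because the same contrast chose the members.

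**Figure D1:**
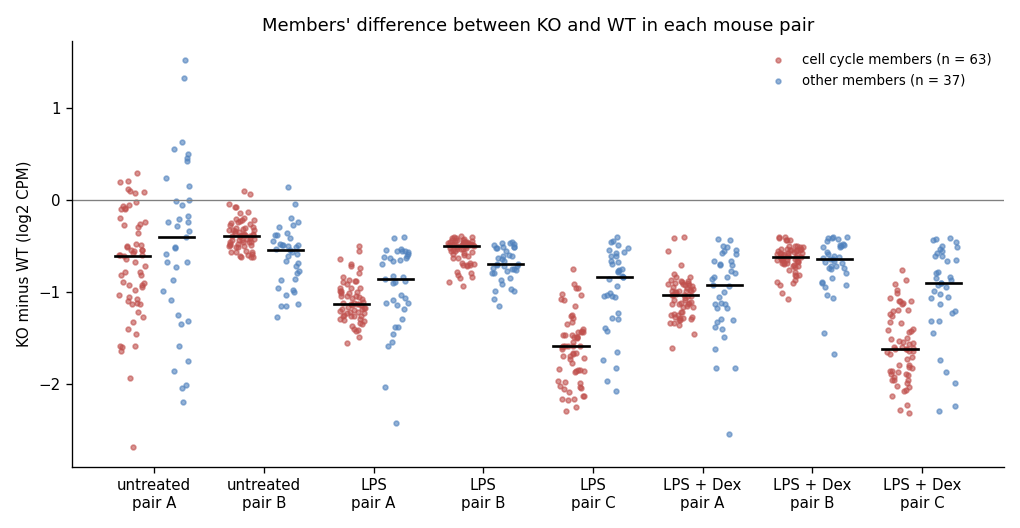
KO minus WT difference on the log2 CPM scale (vertical axis) of each of the 100 members (points) in each mouse pair and treatment (horizontal axis), for cell cycle members (red, n = 63) and other members (blue, n = 37), with black bars at the median. Cell cycle members reached a median of -1.59 in pair C and -0.50 in pair B under LPS, while other members stood at -0.83 and -0.70.

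The median decrease of the cell cycle members differed by pair. The 63 cell cycle members had medians of -1.13, -0.50 and -1.59 under LPS and -1.03, -0.62 and -1.62 under LPS + Dex in pairs A, B and C. The 37 other members had -0.85, -0.70 and -0.83, then -0.92, -0.64 and -0.90. Pair C gave the largest of the 3 LPS decreases for 57 of the 63 cell cycle members and pair B for 0. Single members of the other group varied by pair in different directions, with the largest LPS decrease in pair A for 15, in pair B for 4 and in pair C for 18 of the 37. Cd4, for example, differed by -2.43, -0.74 and -0.60 and Pask, a kinase with a PAS domain, by -0.64, -0.72 and -2.08 in pairs A, B and C. The WT mice were ordered in the same way: the median level of the cell cycle members in LPS-treated WT cells was 3.71, 3.28 and 4.0 log2 CPM in pairs A, B and C, whereas in KO cells it was 2.60, 2.72 and 2.35. Under LPS pair B thus had the lowest WT level, the highest KO level and the most Nelfb RNA left in its KO mouse. Under LPS + Dex the WT medians were 3.70, 3.20 and 4.04 and the KO medians 2.60, 2.49 and 2.45. Pair B was again lowest in WT cells there, but pair A was highest in KO cells. The part of the residual Nelfb in the smaller difference of pair B was not tested.

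**Figure D2:**
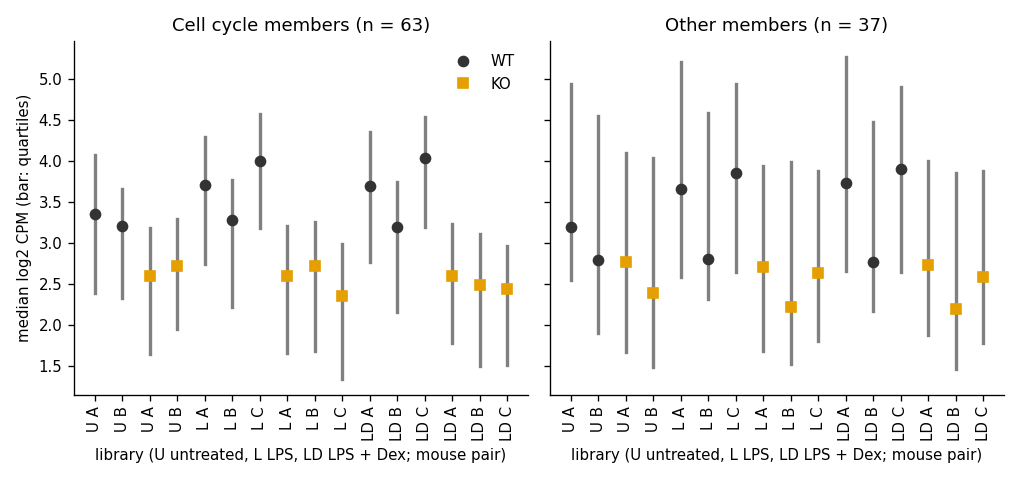
Median log2 CPM (vertical axis) of the 63 cell cycle members (left) and the 37 other members (right) in each of the 16 libraries (horizontal axis), for WT (dark circles) and KO (orange squares), with bars from the lower to the upper quartile over members. In the cell cycle members the WT medians under LPS and LPS + Dex lay between 3.20 and 4.04 and the KO medians between 2.35 and 2.72.

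Within the cell cycle group, 7 members act in DNA replication. Cdc45, part of the helicase that opens DNA at the fork, was at 3.67, 3.28 and 4.33 log2 CPM in LPS-treated WT mice of pairs A, B and C and at 2.71, 2.60 and 2.75 in the KO. Mcm7, a subunit of the same helicase, was at 5.41, 5.46 and 6.05 in WT and 4.33, 5.02 and 4.35 in KO mice. The KO values of both genes lay below every WT value under LPS, as in 7.82% of all genes, and these values chose the members. Gins2 and Pole, a helicase partner and the catalytic subunit of a replicative polymerase, averaged -0.83 and -1.27 over their 6 differences.

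DNA repair supplied 11 members. Bard1, the partner of Brca1, was at 2.73, 2.13 and 3.28 log2 CPM in WT and 1.33, 1.42 and 0.99 in KO mice under LPS, and Exo1, an exonuclease that resects DNA ends, at 2.02, 1.95 and 2.55 against 0.83, 1.24 and 0.42. Both genes were lower in every KO mouse than in any WT mouse and highest in the WT mouse of pair C. Such a lack of overlap under LPS was found in 7.82% of all genes, and these values chose the members. Brca1, Fanca, Chek1 and Ung, which act in recombination, crosslink repair, the damage checkpoint and removal of uracil, averaged -1.16, -0.93, -1.06 and -1.12.

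Chromosome segregation and cell division gave 14 members of centromere, kinetochore and chromosome structure and 14 of spindle and cytokinesis, with 4 further members that bind or maintain replicated chromatin. Cenpi, a centromere protein, was at 3.37, 2.82 and 3.32 log2 CPM in WT and 2.11, 1.88 and 1.89 in KO mice under LPS. Kntc1, a kinetochore protein of the spindle checkpoint, was at 4.33, 3.99 and 4.53 against 2.92, 3.21 and 2.86, and Spag5, a spindle protein, at 4.26, 3.45 and 4.50 against 2.90, 2.76 and 2.90. Kif18b, a kinesin of microtubule ends, was at lower levels, at 2.16, 1.86 and 2.25 against 1.33, 1.22 and 0.84. All 4 genes were without overlap between genotypes under LPS, as were 7.82% of all genes, and these values chose the members.

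The 13 cell cycle regulators included the kinase Mastl, which favours mitotic entry, Ccne2, a cyclin of the start of S phase, and Ube2c, the ubiquitin-conjugating enzyme of the anaphase-promoting complex. Mastl was at 3.22, 2.64 and 3.48 log2 CPM in LPS-treated WT and 2.31, 1.81 and 1.89 in KO mice. Ccne2 was at 2.53, 2.04 and 2.95 against 1.11, 1.16 and 0.93, and Ube2c at 4.06, 3.47 and 4.74 against 2.84, 2.78 and 3.15. Plk1, Aurkb and Ccna2, a mitotic kinase pair and a cyclin, averaged -0.99, -0.94 and -1.26 over the 6 differences.

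**Figure D3:**
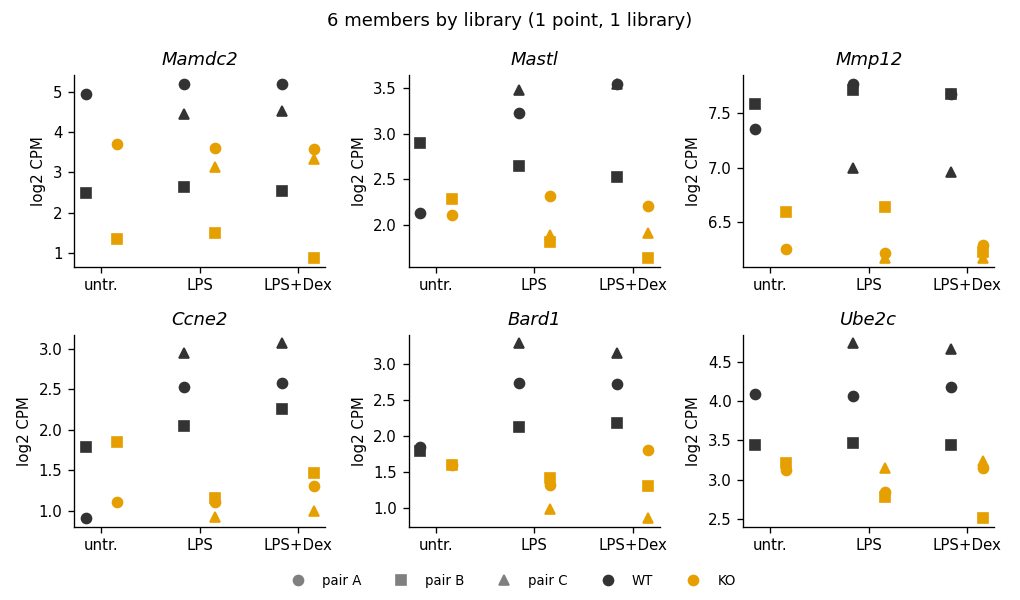
Log2 CPM (vertical axis) of 6 members in each of the 16 libraries by treatment (horizontal axis; untr. is untreated), for WT (dark) and KO (orange) mice of pairs A (circles), B (squares) and C (triangles). Bard1 in KO cells stays between 0.87 and 1.80 in all treatments, while Mamdc2 falls within each pair although the WT mouse of pair B lies below the KO mice of pairs A and C.

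Several of the 37 members outside the cell cycle classes depended on pairing. Mamdc2, the lowest score, was at 5.21, 2.64 and 4.44 log2 CPM in WT and 3.62, 1.49 and 3.15 in KO mice under LPS, so that each KO mouse lay below its WT partner while the genotypes overlapped. Mcoln3, an endolysosomal cation channel, was at 5.30, 2.80 and 4.93 against 3.85, 2.10 and 3.88, also with overlap, and Cd4 at 5.13, 5.85 and 3.13 against 2.71, 5.12 and 2.53. Mmp12, the macrophage elastase, did not overlap, at 7.77, 7.71 and 7.0 against 6.22, 6.64 and 6.18, nor did Myo7a, an unconventional myosin, at 6.12, 6.05 and 6.24 against 5.24, 5.14 and 5.21. Padi4 was at 3.84, 3.83 and 4.49 against 3.15, 2.84 and 3.66, and Ndrg2 at 2.47, 2.36 and 3.21 against 1.65, 1.56 and 1.98, both without overlap. Serpinb9b was at 2.57, 0.97 and 2.44 against 0.53, 0.26 and 1.05, with overlap under LPS. Of all genes, 7.82% were lower in the KO without overlap under LPS, and these values chose the members. Prr11 and Tcf19 averaged -1.10 and -1.41.

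Replicates outside the choice were examined by leaving each pair out, choosing 100 genes from the other two, and reading the pair that was left out. The genes chosen without pair A were lower in it under both treatments in 96 of 100 cases, against 38.5% of all genes past the floor, with medians of -1.04 (LPS) and -0.99 (LPS + Dex). Without pair B the count was 95 of 100, against 34.4%, with medians of -0.40 and -0.56, and without pair C it was 96 of 100, against 40.8%, with medians of -1.37 and -1.28. These lists shared 89, 44 and 89 genes with the 100 members, so the list changed most when pair B was not used. The left-out pair had no part in choosing its list, but each pair is a single mouse per genotype.

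Untreated cells had no part in the rule, although they came from mice of pairs A and B whose treated cells did. In them 82 of the 100 members were lower in the KO in both pairs, against 22.5% of all genes, 1 (Ccne2) was higher in both and 17 were mixed. The median difference was -0.59 in pair A and -0.44 in pair B, against 0.02 and 0.01 over all genes. In pair B alone, which does not hold the WT library that stood apart, 97 of 100 members were lower, against 48.3% of all genes. Both pairs showed a decrease of over 0.5 in 21 members, against 0.645% of all genes, and both KO libraries lay below both WT libraries in 62 members, against 13.8%. The decrease was seen in both pairs for 7 of 7 DNA replication, 9 of 11 DNA repair, 3 of 4 replicated chromatin, 11 of 14 centromere and 14 of 14 spindle members, 11 of 13 regulators and 27 of 37 others.

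**Figure D4:**
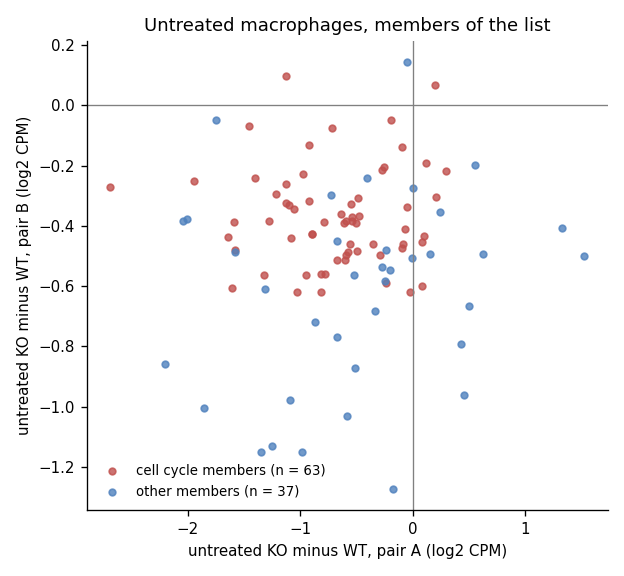
Untreated KO minus WT difference on the log2 CPM scale in pair A (horizontal axis) and pair B (vertical axis) for the 63 cell cycle members (red) and the 37 other members (blue), with grey lines at 0. The 82 members lower in both pairs lie in the lower left, and pair A spreads more widely than pair B.

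Gene by gene, the 2 libraries per genotype did not pass a threshold. By limma, with Benjamini-Hochberg adjustment over 9614 genes, an FDR under 0.05 and a change over 1.5-fold, 0 members were called lower in untreated KO cells, against 0.0% of all genes; 7 members had an unadjusted p under 0.05 in that direction, against 0.198% of all genes, and 0 in the other, against 0.187%. Cbr2, a carbonyl reductase, was at 4.05 and 3.57 log2 CPM in untreated WT and 2.20 and 2.57 in KO cells, a difference of -1.43 ± 0.35 (SE; limma adjusted p = 0.889). Mmp12 was at 7.35 and 7.58 against 6.26 and 6.60 (-1.03 ± 0.28; limma adjusted p = 0.889). In both genes the genotypes did not overlap. Without the untreated WT library of pair A the number of members lower at an unadjusted p under 0.05 was 16, against 1.29% of all genes, and without that of pair B, 30 members were called lower and 1 higher while 20.9% of all genes were called higher and 19.8% lower.

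The 10 largest untreated decreases among members lower in both pairs were those of Cd4, Ung, Cbr2, Ndrg2, Chchd10, Cchcr1, Mamdc2, Kif22, Spc24 and Stac2. Ung was at 2.52 and 1.85 log2 CPM in WT and at -0.17 and 1.58 in KO cells of pairs A and B, and Spc24, a kinetochore protein, at 2.91 and 1.6 against 0.97 and 1.34. For both genes most of the decrease lay in pair A. Ndrg2 fell by 1.35 and 1.15 on the log2 scale in pairs A and B without overlap, and Stac2 by 0.98 and 1.15 with the genotypes overlapping. Ccne2 was the exception, at 0.92 and 1.78 in WT and 1.11 and 1.85 in KO cells, and Chek1, Arhgap6, Stau2, Adcy3, Fsd1l and Lima1 had a mean untreated difference above 0 with opposite signs in the pairs.

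Few members passed the threshold for a change with LPS. The median change with LPS over the members was 0.40 on the log2 scale in WT cells, with 80 of 100 higher, against 0.02 and 51.6% over all genes, and in KO cells it was -0.13, with 73 lower, against -0.01 and 51.5%. Those fits did not pair cells of a mouse, and pair C, without untreated cells, had the highest WT level under LPS for 67 members. With the mouse as a block the WT median was 0.229, with 71 higher, against 0.015 and 51.1% over all genes. The KO median was then -0.064, with 70 lower, against -0.006 and 51.6%. Without the block, 1 member in WT cells, Intu, an effector of cilium formation, was called higher with LPS (FDR under 0.1, over 1.5-fold), against 2.81% of all genes, and 0 lower, against 0.759%. Intu was at 1.46 and 1.80 log2 CPM in untreated WT cells of pairs A and B and at 2.51, 2.53 and 2.46 with LPS, a change of 0.87 ± 0.21 (SE; limma adjusted p = 0.0993). Leaving out 1 WT library gave 0 members in 7 of 8 fits and, without the untreated library of pair B, 16 members higher and 1 lower, while 23.7% of all genes were called higher and 21.1% lower. In KO cells 1 member, Hjurp, the chaperone of the centromeric histone, was called lower, against 1.72% of all genes, and 0 higher, against 3.56%. Hjurp was at 5.08 and 5.34 in untreated KO cells and at 4.63, 4.73 and 4.50 with LPS, a change of -0.59 ± 0.12 (SE; limma adjusted p = 0.033). With the mouse as a block, Sgol2, which protects centromeric cohesion, was called lower in place of Hjurp (-0.59 ± 0.21, limma adjusted p = 0.0681). That fit called 2.57% of all genes lower. The LPS libraries helped to choose the members, so their changes from untreated cells are not independent of the rule.

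No member passed the threshold for a change with Dex added to LPS in fits without the mouse as a block. In WT cells 0 members were called (FDR under 0.1, over 1.3-fold) in either direction, against 0.177% of all genes higher and 0.0936% lower, and 0 members had an unadjusted p under 0.05, against 1.39% of all genes higher and 1.14% lower. These fits did not pair the cells of a mouse. The members' median range across WT mice under LPS was 0.894, against 0.328 over all genes, so counts below the background are not read as a weaker response. In KO cells 0 members were called, against 1.23% higher and 0.884% lower, with 1 member lower and 0 higher at an unadjusted p under 0.05, against 2.92% and 3.66% of all genes. With the mouse as a block, 0 members were called in WT cells, against 0.312% of all genes higher and 0.177% lower. At an unadjusted p under 0.05 that fit gave 0 members higher and 1 lower, against 2.25% and 2.23% of all genes. In KO cells the block fit called Sh2d3c lower (-0.39 ± 0.07, limma adjusted p = 0.00376), against 2.45% of all genes. The difference in Dex response between genotypes gave 0 calls for members and 0.0% for all genes by limma at an FDR under 0.1, and 0 members at an unadjusted p under 0.05, against 0.052% of all genes higher and 0.0104% lower. The median change with Dex over the members was 0.01, -0.04 and 0.00 in WT and 0.03, -0.13 and 0.00 in KO mice of pairs A, B and C.

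Of the pathway lists, DNA replication and cell cycle held 57 measured genes of 59, of which 8 were members, and 47 were lower in all 6 pairs, against 15.0% of all genes, and 1 was higher. Among its 49 genes outside the members, 39 were lower in all 6 pairs, with a median mean difference of -0.64, and 35 were lower in both untreated pairs. Mcm2, Mcm3, Mcm4, Mcm5 and Mcm6, the Mcm subunits of the replicative helicase other than Mcm7, were lower in all 6 pairs and in both untreated pairs. Gins1, Gins3 and Gins4 were also lower in all 6 pairs. In untreated KO cells of pair B, however, Gins3 was higher by 0.311 and Gins4 by 0.195. Mki67, a marker of dividing cells, was lower in both untreated pairs but not in all 6 treated pairs. It fell by 0.55 and 0.54 in pairs A and C under LPS and was 0.15 higher in pair B. Under LPS + Dex its differences were -0.51, 0.42 and -0.30 in pairs A, B and C. The 4 cycling markers, Mki67, Top2a, Ccnb1 and Ube2c, summed to 401, 273 and 397 CPM in LPS-treated WT mice and to 225, 267 and 201 in KO mice of pairs A, B and C. In pair B Mki67 made up most of this sum, and the other 3 markers were lower in its KO mouse, by 0.34 (Top2a), 0.36 (Ccnb1) and 0.68 (Ube2c) on the log2 scale. In untreated cells of pair B the 4 markers summed to 173 CPM in WT and 136 in the KO. DNA repair held 38 genes, 5 of them members, with 18 lower in all 6 pairs and 2 higher, and a median of -0.14. Bulk RNA cannot tell fewer dividing cells apart from less of each RNA per cell.

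Other lists held few members, and their counts of genes lower in all 6 pairs stand against 15.0% of all genes. The share of all genes higher in all 6 pairs was not counted. The NELF and DSIF subunits other than NELF-B (5 genes) had 0 lower in all 6 pairs and 2 higher, and 34 elongation genes had 3 lower and 5 higher. Interferon-stimulated genes (25) had 0 in either direction and a median of -0.31, lysosome genes (28) had 4 lower and 3 higher, cholesterol and fatty acid genes (24) 1 and 5, and macrophage receptors and regulators (42) 1 and 8. Among small GTPase regulators 15 were lower and 21 higher, and Arhgap6 and Rasgrp3 were members. Of the tRNA synthetase and mitochondrial ribosome genes 18 were lower and 10 higher, of 168 ubiquitin genes 14 and 34, and of 98 helicase and RNA processing genes 10 and 13, with 0 members among them.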

How the data were processed

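RNA-seq was measured in 16 libraries of macrophages from WT and KO mice, untreated or given LPS or LPS + Dex. The authors aligned paired reads to mm10 in CLC Bio Genomic Workbench, counted unique reads over exons, scaled libraries with the edgeR weighted trimmed mean and deposited log2 CPM values per gene for each library. The submitters' processing notes also name CASAVA 1.8 and FastQC. The deposited table further holds 18 columns of the authors' p-values and FDR for their own comparisons, which were not used here.

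The members, gene lists and role classes were chosen with earlier results of these data known. Differences were taken on the deposited log2 CPM values with no pseudocount added. Comparisons used limma 3.58.1 with a mean-variance trend in R 4.3.3, with Benjamini-Hochberg adjustment over 9614 genes. Fits used the 4 untreated libraries for genotype, the 8 libraries of a genotype for LPS and Dex, and the 12 treated libraries for the difference in Dex response; scripts were tested on simulated data. Calls required an FDR under 0.05 and 1.5-fold for genotype, an FDR under 0.1 and 1.5-fold for LPS, an FDR under 0.1 and 1.3-fold for Dex, and an FDR under 0.1 for the difference in Dex response. Named genes were the 20 lowest scores, the 10 largest untreated decreases among members lower in both pairs, called members, the 3 genes on each side of the threshold, members on the gene lists, members near Nelfb and members higher in untreated KO cells; 1 of these genes is not reported here. Low values under 3 CPM were whole reads within 0.15 in 100.0% of cases, which gave 25029253 to 49728709 reads per library. Deviations from group means correlated within a mouse between LPS and LPS + Dex (r = 0.924 in WT, 0.876 in KO) and between untreated and LPS cells (0.447 and 0.865), as the labels give the same mouse, and between paired WT and KO mice under LPS (0.682, 0.681 and 0.443 in pairs A, B and C). Samples of a group are separate mice. Gene positions and promoters came from RefSeq (GRCm38.p6) and exons from GENCODE; 9555 of 9614 symbols matched. Alternatives were the mouse or pair as a block, 1 fit of all libraries, centring, a filter at a mean of 1 log2 CPM, voom on recovered reads, and leaving out each library.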

Additional observations from a re-analysis of the deposited data

Results flagged for a closer look

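The median change with LPS over the 100 members had opposite signs in the genotypes. It was 0.472 and 0.015 on the log2 scale in the WT mice of pairs A and B, against -0.032 and -0.088 in the KO mice. The medians over all genes had the same signs, at 0.045 and 0.002 in WT and -0.008 and -0.001 in KO mice. Over the 63 cell cycle members it was 0.429 and 0.012 in WT and -0.04 and -0.121 in KO mice. The 37 other members did not share the split, at 0.542 and 0.033 in WT and 0.007 and -0.056 in KO mice. The difference between genotypes was not tested, and the LPS libraries helped to choose the members. The untreated WT library of pair A, which enters the largest of these medians, stood apart from the others.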

How the results depend on the processing

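The 100 members were all kept with a floor of 0 and with Zfp and Slc symbols allowed, and 95 with a floor of 2. LPS pairs alone kept 75, LPS + Dex pairs alone 65, the mean of the 6 differences 59, an unpaired score over 18 differences 54, and the choice without pair B 44; without pair A or C, 89 were kept. The members lower in both untreated pairs numbered 77 to 88 of 100 over these choices, and the counts in a left-out pair were 95 or 96 with floors of 0 and 2. In untreated cells the median difference of -0.51 ran from -0.64 to -0.42 when 1 library was left out, with 0 to 30 members called lower and 0 to 1 higher. The pair as a replicate block gave 0 members called and 17 lower at an unadjusted p under 0.05, against 2.27% of all genes, and 1 fit of all 16 libraries gave 21, against 7.44%.

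Members called higher with LPS in WT cells numbered 1 in the fit as reported and with the replicate block, 0 with centring, the filter or voom, 6 in 1 fit of all 16 libraries (6.01% of all genes), and 0 to 16 when 1 library was left out (23.7% of all genes in the fit giving 16), with 0 to 1 called lower. Members called lower with LPS in KO cells numbered 0 in 1 fit of all libraries and 0 to 1 when 1 library was left out. The replicate block gave 1 member lower with Dex in KO cells, against 2.45% of all genes. The cause of these changes was not tested. Untreated differences of single members that changed sign when 1 library was left out ran from -2.42 to 0.046 (Mamdc2), -0.70 to 0.064 (Mastl), -0.30 to 0.57 (Ccne2), -1.98 to 0.19 (Serpinb9b), -1.88 to 0.30 (Mcoln3) and -0.75 to 0.24 (Kntc1).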
